A study of Mus musculus with 12 samples.

Results

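The 9 genes described here encode parts of the machinery of endoplasmic reticulum (ER)-associated degradation (ERAD): the ubiquitin ligase gene Syvn1 with its partners Sel1l and Herpud1, the mannose-trimming and lectin genes Edem1, Edem2, Edem3 and Os9, and the segregase genes Vcp and Nploc4. They were picked as a functional group, with earlier results of these data known, and found by gene symbol, and each had 1 entry among the 23235 entries of the liver values and 1 among the 24421 of the embryonic fibroblast values, of which 21704 symbols were in both. The study sequenced total RNA of mice with the Rpt2G2A/G2A genotype (G2A below) and of wild-type (WT) mice. Rpt2, encoded by Psmc1, is an ATPase of the regulatory particle of the proteasome, and the G2A allele removes the glycine to which a myristoyl lipid is attached. Neither genotype received any treatment.

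The liver samples were 3 G2A and 3 WT fetal livers of embryonic stage E12.5, collected as littermate pairs. The fibroblast samples were immortalized mouse embryonic fibroblasts (MEFs), with 2 G2A and 3 WT libraries used and 1 more G2A sample not analysed here. The labels do not say whether the MEF libraries came from separate lines or cultures, so p-values there measure only the spread between these samples, which may be technical. Liver values are FPKM (sequenced fragments scaled by transcript length and by library size), for which the read depth is unknown. MEF values are reads divided by 1 size factor per library, with 36415586 to 37695116 gene reads a library.

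ERAD removes misfolded proteins from the ER. Proteins are recognised in the ER, moved back through the membrane, tagged with ubiquitin on the cytosolic side and pulled out by an ATPase for destruction by the proteasome. Glycoproteins are marked by the trimming of their mannose residues, which ER lectins then read. Several ERAD genes are known targets of the unfolded protein response, the signalling pathway that raises ER folding and disposal capacity under ER stress. In a secretory tissue such as the liver, ERAD works beside the chaperones that fold plasma proteins.

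Promoter windows of these genes were searched for exact matches to letters known to be bound by factors of that response, among others. RefSeq promoters of GRCm38.p6, running from 250 bases before to 50 bases after each gene start, held 1 window for each of the 9 genes, and 32851 windows in all. The ER stress response element (ERSE, with CCAAT and CCACG 9 bases apart) was in 39 windows (0.119%), and of the 9 genes Syvn1 alone held it, at position -44 from the start on the strand of the gene. The shorter ERSE-II (ATTGG and CCACG 1 base apart) was in 12 windows (0.0365%), among them that of Herpud1 at position -52. Herpud1 also held the C/EBP-ATF element TTGCATCA at position -112, which 294 windows (0.895%) held. The core of the unfolded protein response element, TGACGTGG, was in 222 windows (0.676%), among them that of Vcp at position -114. The antioxidant response element core was in 999 windows (3.04%) and in none of the 9. Both strands were searched, no match in these windows overlapped another, and the last 5 letters of TGACGTGG are CCACG read on the other strand. A match is a description of letters, and the lack of one says only that these letters are not in this window. Only exact matches were counted, so an element with 1 letter changed is not among them. The windows with a match are printed so that the place of each element can be read beside the values of its gene, with the matches in capitals. Syvn1 lies at chr19:6046326-6046625 on the plus strand, Herpud1 at chr8:94386179-94386478 on the plus strand and Vcp at chr4:43000458-43000757 on the minus strand, each printed 5′ to 3′ along the gene.

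Syvn1: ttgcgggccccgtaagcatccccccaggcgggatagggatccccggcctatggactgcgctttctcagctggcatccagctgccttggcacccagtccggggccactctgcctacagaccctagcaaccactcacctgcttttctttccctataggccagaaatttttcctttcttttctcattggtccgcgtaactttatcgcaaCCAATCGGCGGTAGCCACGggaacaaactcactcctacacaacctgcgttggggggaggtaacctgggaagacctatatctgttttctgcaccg

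Herpud1: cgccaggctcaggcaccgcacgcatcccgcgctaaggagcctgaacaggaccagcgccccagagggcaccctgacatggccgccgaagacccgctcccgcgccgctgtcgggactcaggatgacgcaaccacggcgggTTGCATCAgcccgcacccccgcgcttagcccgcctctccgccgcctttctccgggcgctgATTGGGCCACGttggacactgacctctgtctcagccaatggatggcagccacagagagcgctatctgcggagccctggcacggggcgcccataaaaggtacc

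Vcp: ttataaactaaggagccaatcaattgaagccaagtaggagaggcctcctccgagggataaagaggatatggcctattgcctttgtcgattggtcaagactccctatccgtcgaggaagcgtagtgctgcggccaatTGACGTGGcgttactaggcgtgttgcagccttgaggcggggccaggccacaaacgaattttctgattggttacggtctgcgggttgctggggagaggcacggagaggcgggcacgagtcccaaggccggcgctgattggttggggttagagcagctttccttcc

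One library in each tissue stood apart. On the first principal component of liver (37.9% of the variance), G2A livers 1 and 2 were at -30.6 and -34.9 and the WT livers between 13.3 and 23.3, while G2A liver 3 was at 7.91, on the side of the WT livers. In MEFs (73.4%), the G2A libraries were at -51.5 and -55.2 and WT MEFs 1 and 2 at 87.2 and 92.0, while WT MEF 3 was at -72.5, on the side of the G2A libraries. Whether WT MEF 3 is a different line or carries the wrong label was not tested, and the MEF results with all libraries rest on its label. For Psmc1, Sel1l and Nploc4 it lay on the side of the other WT libraries. For Svip, described further on, and for the ERAD genes Usp13 and Plaa it lay with or near the G2A libraries. These genes are examples, and such genes were not counted over all. Results for the 9 genes are therefore given with all libraries and without G2A liver 3 or WT MEF 3. Both libraries were singled out from these same values because they lay toward the other genotype. Leaving such a library out tends to separate the genotypes, so adjusted p-values without it are weaker support than they look. Psmc1 mRNA was 151, 145 and 161 FPKM in G2A livers, against 178, 181 and 178 FPKM in WT livers, and 10658 and 10913 normalized reads in G2A MEFs, against 7393, 8589 and 6485 in WT MEFs. These levels do not show the base change itself and so do not check the genotype labels.

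All 9 genes passed the filters on low values and were measured in every library, with a lowest value of 10.3 FPKM in liver and of 644 normalized reads in MEFs. Every G2A liver was above every WT liver for Syvn1, Sel1l, Herpud1, Edem1, Edem3 and Os9, by up to 44.0% for Sel1l on the log2(value + 1) scale, while Edem2 and the segregase genes overlapped. Both G2A MEF libraries were below all WT MEF libraries for Sel1l, Edem1 and Edem3, and above them for Nploc4 and Vcp. With all libraries, none of the 9 passed limma's test at a Benjamini-Hochberg adjusted p under 0.05 in either tissue. Sel1l and Nploc4 passed the test of the difference between the tissues.

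Among the 12938 genes tested in liver, the same limma test called 0.0155% higher and 0.00773% lower, and at an unadjusted p under 0.05 it had 1173 higher and 1598 lower genes. At that unadjusted level 4 of the 9 genes were higher in G2A liver and 0 were lower. Without G2A liver 3, limma called 12.4% of genes higher and 12% lower, and 4 of the 9 genes higher and 0 lower. The 2 genotypes did not overlap in liver for 6 of the 9 genes, all 6 higher in G2A, where 11.8% of all genes were higher and 15.7% lower without overlap. The median log2 fold change of the 9 genes was 0.24, beside 0.01 over all genes tested, and 7 of the 9 were above 0, beside 52.7% of all genes.

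In MEFs limma called 0% of 13241 genes higher and 0% lower with all libraries, with 913 higher and 990 lower at an unadjusted p under 0.05. Of the 9 genes, 1 was higher and 2 were lower in G2A MEFs at that unadjusted level. On the recovered reads, edgeR called 0 of the 9 and DESeq2 called 1 higher and 2 lower, where DESeq2 called 3.1% of all genes higher and 5.1% lower. On simulated MEF reads DESeq2 made more false calls than edgeR, so its calls here are weaker than those of edgeR would be. Limma was not run on these simulated reads. Without WT MEF 3, limma called 11.7% of genes higher and 11.5% lower, and of the 9 genes 1 higher and 2 lower. Without overlap between genotypes, 2 of the 9 were higher and 3 lower in G2A MEFs, where 18.9% of all genes were higher and 18% lower. The median log2 fold change of the 9 genes was -0.18, beside 0.01 over all genes tested, and 3 of the 9 were above 0, beside 51.6% of all genes.

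The ligase complex comes first. Syvn1 encodes HRD1, the membrane-embedded ubiquitin ligase that also forms the channel through which substrates leave the ER. In liver Syvn1 was at 26.4, 30.8 and 20.8 FPKM in G2A livers 1 to 3, against 19.9, 20.3 and 20.7 FPKM in WT livers. The genotypes did not overlap, but G2A liver 3 (20.83 FPKM) lay barely above the highest WT liver (20.73 FPKM), while G2A livers 1 and 2 were well above it. This was a log2 fold change of 0.33 (SE 0.14, adjusted p = 0.236), or of 0.47 (adjusted p = 0.0162) without G2A liver 3. In MEFs Syvn1 was at 2399 and 2207 normalized reads in G2A, against 2326, 2236 and 2611 in WT. The genotypes overlapped there, with a log2 fold change of -0.05 (SE 0.12, adjusted p = 0.855), which was 0.01 (adjusted p = 0.934) without WT MEF 3. The Syvn1 gene (ENSMUSG00000024807.10, chr19:6046576-6053712 on the plus strand of NCBIM37) shares 83 of its 4859 exon bases with Mrpl49 on the other strand. Whether reads were counted by strand is not given in the sources used here, so reads from these bases cannot be assigned.

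Sel1l encodes the adaptor that stabilises HRD1 and docks the lectins onto it. It was at 25.3, 30.8 and 23.1 FPKM in G2A livers, against 17.9, 18.2 and 17.7 FPKM in WT livers. Every G2A liver lay above every WT liver, and G2A liver 3 was the lowest of the 3 G2A livers. The means were 26.4 ± 4.0 FPKM in G2A livers and 17.9 ± 0.238 FPKM in WT livers (SD, n = 3 each). The log2 fold change of 0.53 (SE 0.11, 95% interval 0.26 to 0.79) was the largest of the 9 genes in liver. It had an adjusted p of 0.101, and of 0.0139 at a log2 fold change of 0.61 without G2A liver 3.

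In MEFs Sel1l was at 4189 and 4191 normalized reads in G2A, against 5754, 5025 and 5653 in WT. Both G2A libraries lay below all 3 WT libraries, and WT MEF 3 sat among the other WT libraries for this gene. On the log2 scale G2A was at -0.38 (SE 0.11, adjusted p = 0.285) from WT, or at -0.36 (adjusted p = 0.0515) without WT MEF 3. DESeq2 on the recovered reads called Sel1l lower in G2A MEFs (log2 fold change -0.39, adjusted p = 0.0157). Sel1l (ENSMUSG00000020964.7) lies at chr12:93044483-93087597 on the minus strand of NCBIM37.

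Herpud1 encodes HERP, a short-lived ER membrane protein that assembles with HRD1 and is itself induced by ER stress. In liver it was at 51.5, 52.0 and 38.5 FPKM in G2A, against 33.5, 32.4 and 36.3 FPKM in WT. G2A livers 1 and 2 stood well above the WT livers, and G2A liver 3 just above the highest of them. The means were 47.3 ± 7.66 FPKM in G2A livers and 34.1 ± 2.03 FPKM in WT livers (SD, n = 3 each). They differed by a log2 fold change of 0.45 (SE 0.13, adjusted p = 0.135), or of 0.59 (adjusted p = 0.00997) without G2A liver 3. In MEFs Herpud1 was at 2352 and 1864 normalized reads in G2A, against 2535, 2250 and 2329 in WT. The genotypes overlapped through G2A MEF 1, with a log2 fold change of -0.18 (SE 0.14, adjusted p = 0.583), or -0.19 (adjusted p = 0.370) without WT MEF 3.

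In these libraries the ratio of adaptor to ligase mRNA lay above WT in G2A livers and below WT in G2A MEFs. The ratio of Sel1l to Syvn1 was 0.959, 1.002 and 1.11 in G2A livers, against 0.897, 0.896 and 0.854 in WT livers. In MEFs it was 1.75 and 1.90 in G2A, against 2.47, 2.25 and 2.17 in WT. The genotypes did not overlap in either tissue, and G2A liver 3 had the highest ratio of the livers although its levels of both mRNAs were the lowest of the G2A livers. The MEF ratios are not per length and can be set only against each other. This ratio was computed after the values were seen and was not tested. How many pairs of genes separate the genotypes as well was not counted. The ratio of Herpud1 to Syvn1 overlapped between the genotypes in both tissues.

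**Figure D1:**
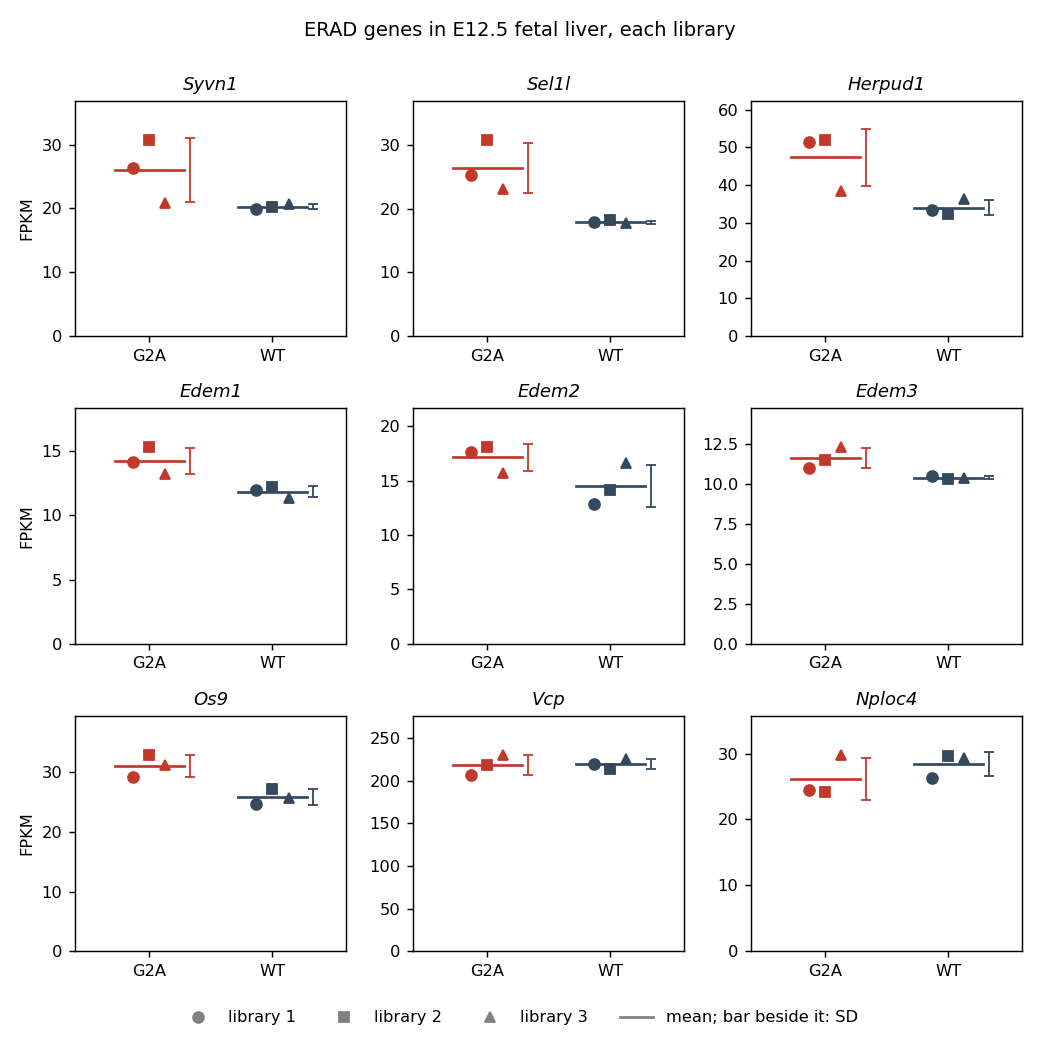
FPKM of each of the 9 ERAD genes in the 3 G2A and the 3 WT fetal livers, one panel a gene, with points for libraries, a line for the mean and a bar for the SD (n = 3 each). Sel1l ranges from 23.1 to 30.8 FPKM in G2A livers and from 17.7 to 18.2 FPKM in WT livers, while Vcp overlaps between the genotypes.

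The EDEM proteins trim mannose from misfolded glycoproteins, which commits them to disposal. Edem1 was at 14.2, 15.3 and 13.3 FPKM in G2A livers, against 11.98, 12.2 and 11.4 FPKM in WT livers. All G2A livers were above all WT livers, by a log2 fold change of 0.24 (SE 0.08, adjusted p = 0.153), or 0.29 (adjusted p = 0.0357) without G2A liver 3. In MEFs Edem1 was at 2442 and 2502 normalized reads in G2A, against 4308, 3253 and 2827 in WT. The G2A libraries were below the WT libraries, whose values were widely spread, with WT MEF 3 the nearest to G2A. Limma gave a log2 fold change of -0.46 (SE 0.20, adjusted p = 0.363), or of -0.60 (adjusted p = 0.0382) without WT MEF 3.

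Edem2 encodes the family member known for the first mannose cut. It was at 17.6, 18.1 and 15.7 FPKM in G2A livers, against 12.9, 14.1 and 16.7 FPKM in WT livers. G2A liver 3 fell below WT liver 3, so the genotypes overlapped (log2 fold change 0.23, SE 0.11, adjusted p = 0.279, and 0.28 with an adjusted p of 0.108 without G2A liver 3). In MEFs Edem2 was at 944 and 888 normalized reads in G2A, against 765, 644 and 998 in WT. WT MEF 3 was the highest MEF library and the other WT libraries were the lowest (log2 fold change 0.21, SE 0.22, adjusted p = 0.664, and 0.38 with an adjusted p of 0.10 without WT MEF 3). Edem2 was the only one of the 3 EDEM genes above 0 in MEFs.

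Edem3 encodes a further mannosidase of the family, which is soluble in the ER lumen. It was the least abundant of the 9 in liver, at 11.02, 11.5 and 12.3 FPKM in G2A, against 10.5, 10.3 and 10.4 FPKM in WT. G2A liver 3 was here the highest library, unlike for Syvn1, Sel1l, Herpud1 and Edem1. In log2 terms G2A exceeded WT by 0.14 (SE 0.07, adjusted p = 0.277), or by 0.11 (adjusted p = 0.256) without G2A liver 3. In MEFs Edem3 was at 1869 and 1829 normalized reads in G2A, against 3532, 2841 and 2498 in WT. The G2A libraries lay close together below every WT library, and this was the largest difference of the 9 genes in MEFs. Limma put it at a log2 fold change of -0.66 (SE 0.17, adjusted p = 0.273), and at -0.78 (adjusted p = 0.0121) without WT MEF 3. DESeq2 on the recovered reads also called Edem3 lower (adjusted p = 0.0161).

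Os9 encodes the lectin that reads the trimmed glycans and hands substrates to SEL1L. It was at 29.2, 32.9 and 31.1 FPKM in G2A livers, against 24.7, 27.3 and 25.6 FPKM in WT livers. The genotypes did not overlap, and G2A liver 3 lay between the other G2A livers. This came to a log2 fold change of 0.25 (SE 0.07, adjusted p = 0.133), equal to 2 decimals without G2A liver 3 (adjusted p = 0.0605). In MEFs Os9 was at 5337 and 4708 normalized reads in G2A, against 5987, 5283 and 6044 in WT, with G2A MEF 1 just above WT MEF 2. The log2 fold change was -0.20 (SE 0.12, adjusted p = 0.473), or -0.17 (adjusted p = 0.314) without WT MEF 3.

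Vcp encodes p97, the hexameric ATPase that extracts ubiquitinated proteins from membranes and complexes, in ERAD and in many other pathways. It was by far the most abundant of the 9 in liver, at 207, 218 and 230 FPKM in G2A livers, against 219, 213 and 226 FPKM in WT livers. The genotypes overlapped, with a log2 fold change of -0.01 (SE 0.06, 95% interval -0.15 to 0.13, adjusted p = 0.950), which was 0.0960 under quantile scaling and -0.04 (adjusted p = 0.553) without G2A liver 3. In MEFs Vcp was at 31191 and 31729 normalized reads in G2A, against 30656, 28536 and 18021 in WT. The 2 G2A libraries were the highest, but WT MEFs 1 and 2 were close to them and WT MEF 3 stood far below. The log2 fold change of 0.33 (SE 0.26, adjusted p = 0.584) was 0.09 (adjusted p = 0.545) without WT MEF 3, so 1 library set most of it. Vcp shares 352 of its 4851 exon bases with 1700022I11Rik on the other strand.

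Nploc4 encodes NPL4, which with UFD1 recruits p97 to ubiquitin chains. In liver it was at 24.5, 24.1 and 29.8 FPKM in G2A, against 26.3, 29.6 and 29.4 FPKM in WT. G2A livers 1 and 2 were the lowest and G2A liver 3 the highest library, so the genotypes overlapped. Limma gave a log2 fold change of -0.12 (SE 0.10, adjusted p = 0.492), or of -0.22 (adjusted p = 0.0698) without G2A liver 3. In MEFs Nploc4 was at 7150 and 7410 normalized reads in G2A, against 5010, 4994 and 5481 in WT. Both G2A libraries lay well above all 3 WT libraries, and WT MEF 3 sat with the other WT libraries. The means were 7280 ± 184 in G2A MEFs (SD, n = 2) and 5162 ± 277 in WT MEFs (SD, n = 3).

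The log2 fold change of Nploc4 in MEFs was 0.50 (SE 0.10, 95% interval 0.24 to 0.75, adjusted p = 0.269). It was 0.54 (adjusted p = 0.00919) without WT MEF 3, and DESeq2 on the recovered reads called it higher (adjusted p = 0.000119). The ratio of Nploc4 to Vcp reads was 0.229 and 0.234 in G2A MEFs, against 0.163, 0.175 and 0.304 in WT MEFs, where the high value is that of WT MEF 3 with its low Vcp. In liver the ratio was 0.118, 0.110 and 0.129 in G2A, against 0.120, 0.139 and 0.130 in WT, and the genotypes overlapped. Nploc4 (ENSMUSG00000039703.9) lies at chr11:120241684-120299022 on the minus strand of NCBIM37.

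**Figure D2:**
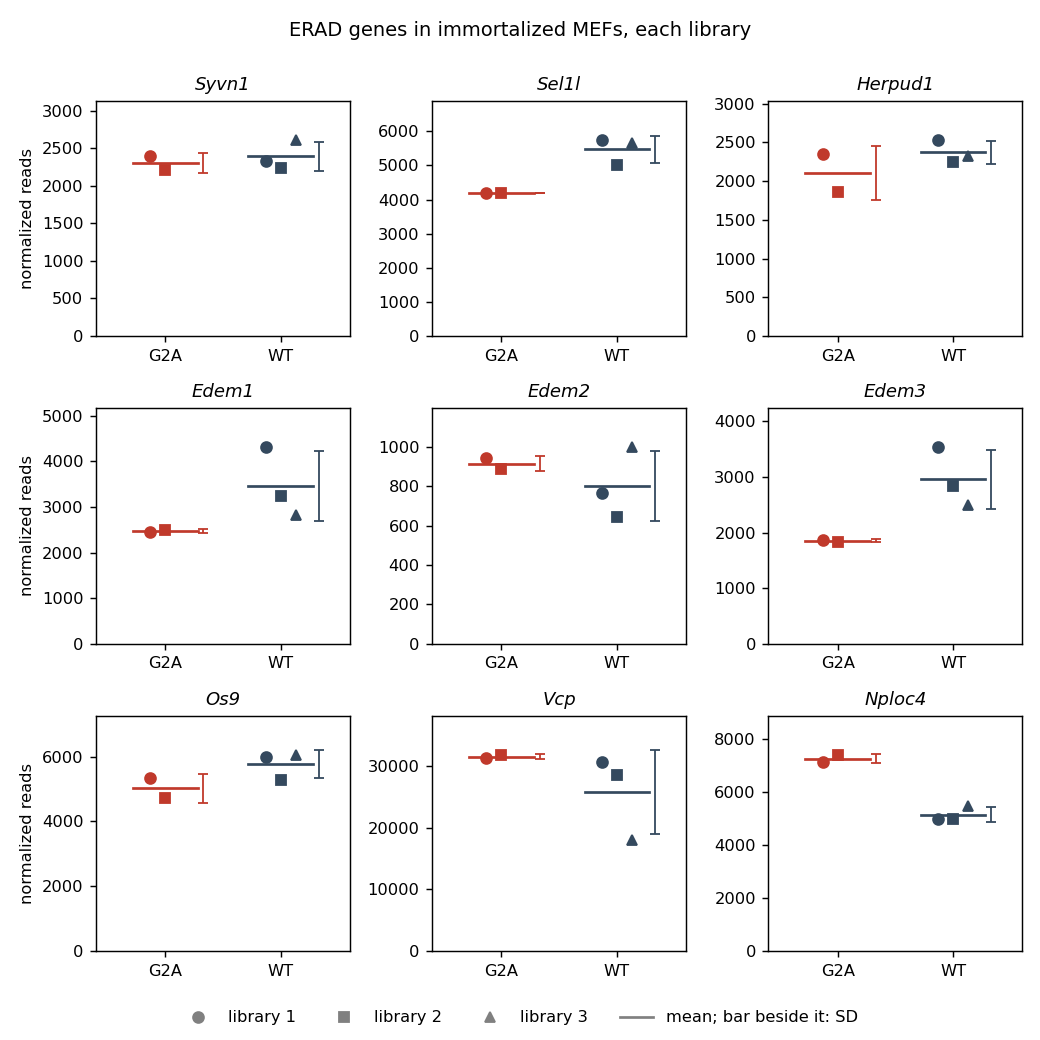
Normalized reads of each of the 9 ERAD genes in the 2 G2A and the 3 WT MEF libraries, one panel a gene, with points for libraries, a line for the mean and a bar for the SD (n = 2 G2A and 3 WT). Both G2A libraries lie below all WT libraries for Sel1l, Edem1 and Edem3 and above them for Nploc4 and Vcp, where WT MEF 3 is at 18021 reads.

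Levels can be ordered between genes in liver, where FPKM is per length. In G2A livers the order of mean FPKM was Vcp (218), Herpud1 (47.3), Os9 (31.1), Sel1l (26.4), Nploc4 (26.1), Syvn1 (26.0), Edem2 (17.1), Edem1 (14.2) and Edem3 (11.6). Neighbours from Os9 to Syvn1 overlapped in their libraries and the others did not. In WT livers it was Vcp (219), Herpud1 (34.1), Nploc4 (28.4), Os9 (25.9), Syvn1 (20.3), Sel1l (17.9), Edem2 (14.5), Edem1 (11.9) and Edem3 (10.4), and Nploc4 with Os9 was the only overlapping pair of neighbours. Sel1l thus stood below Syvn1 in WT livers without overlap, while in G2A livers their ranges overlapped.

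Whether the genotype acted alike on a gene in both tissues was tested as its log2 fold change in liver minus that in MEFs, over the 10818 genes tested in both. No library is shared between the tissues. Of all genes 2.21% passed at an adjusted p under 0.05, and of the 9 genes 2 did. For Sel1l the difference was 0.91 (SE 0.15, 95% interval 0.58 to 1.24, adjusted p = 0.0297), with all 3 G2A livers above the WT livers and both G2A MEF libraries below the WT MEFs. For Nploc4 it was -0.62 (SE 0.14, 95% interval -0.93 to -0.31, adjusted p = 0.0486), with G2A higher in MEFs and overlapping WT in liver. The Nploc4 result lies close to the threshold.

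The other 7 did not pass with all libraries. Edem3 differed by 0.81 (adjusted p = 0.0682), Edem1 by 0.71 (adjusted p = 0.109), Herpud1 by 0.63 (adjusted p = 0.0886) and Os9 by 0.46 (adjusted p = 0.101), all higher in liver. Syvn1 differed by 0.38 (adjusted p = 0.231), Vcp by -0.33 (adjusted p = 0.490) and Edem2 by 0.01 (adjusted p = 0.977). Without WT MEF 3, 6 of the 9 passed, Herpud1, Edem1, Edem3 and Os9 beside Sel1l and Nploc4, where 30.1% of all genes passed. Without G2A liver 3, 4 of the 9 passed, Herpud1 and Edem3 beside Sel1l and Nploc4, where 8.76% of all genes passed. Sel1l missed the threshold without WT liver 2 (adjusted p = 0.0509), WT liver 3 (0.0517), WT MEF 1 (0.0984), G2A MEF 1 (0.524) or G2A MEF 2 (0.443), while its difference stayed between 0.796 and 0.998 in every such fit. With 1 library left out, Nploc4 passed only without G2A liver 3 (0.0163) or WT MEF 3 (0.00331), and missed the threshold without any one of the other 9 libraries, where the adjusted p was between 0.0523 and 0.566. Without 1 of the G2A MEF libraries a single library stands for that group and is assumed to vary like the others.

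**Figure D3:**
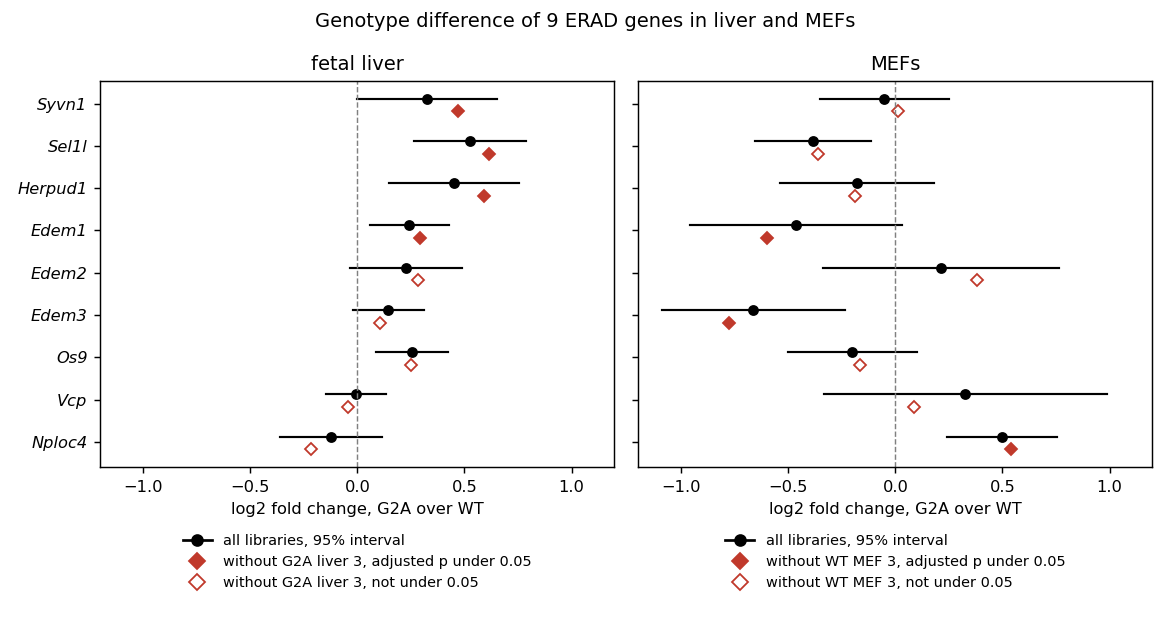
Log2 fold change of G2A over WT for the 9 ERAD genes in fetal liver and in MEFs, on the log2(value + 1) scale, with black points and 95% intervals for all libraries and diamonds for the fit without G2A liver 3 or without WT MEF 3 (filled where the adjusted p is under 0.05). Sel1l lies at 0.53 in liver and -0.38 in MEFs, and Nploc4 at -0.12 and 0.50.

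Seen library by library, as the log2 difference from the WT mean of its tissue, the genes did not move as 1 block. G2A livers 1 and 2 were higher by 0.36 and 0.58 for Syvn1, by 0.48 and 0.75 for Sel1l and by 0.58 and 0.60 for Herpud1. G2A liver 3 was at 0.04, 0.35 and 0.17 for the same genes. In that library Sel1l was the highest of the 3 relative to WT. For Os9 and Edem3, G2A liver 3 was at 0.26 and 0.22, not lower than G2A liver 1 at 0.17 and 0.08.

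**Figure D4:**
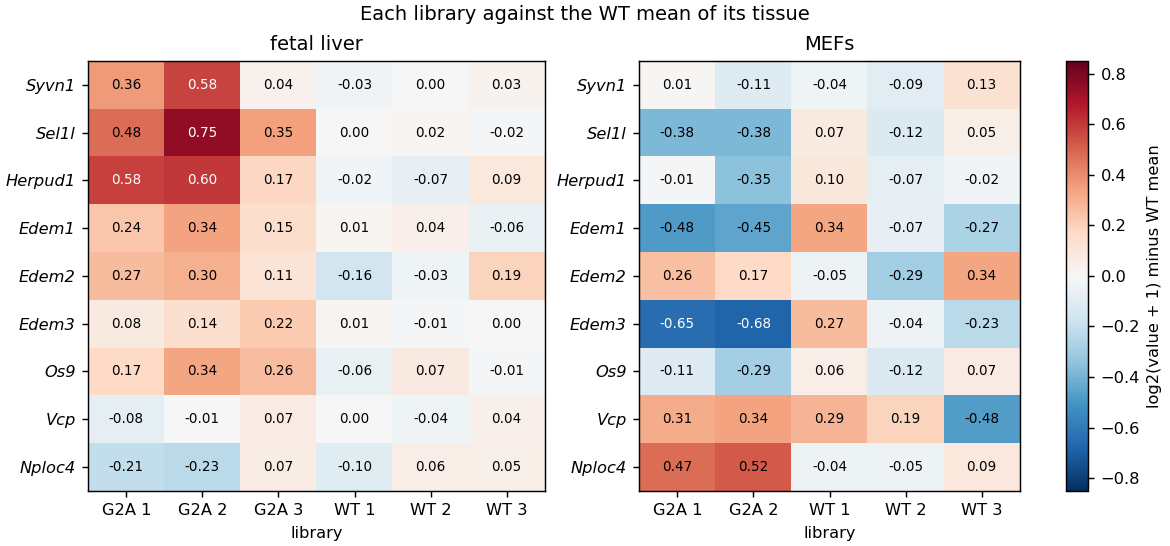
Each library's log2(value + 1) minus the WT mean of its tissue, for the 9 ERAD genes (rows) and the libraries (columns), G2A left of WT in each tissue, with red for higher and blue for lower. G2A livers 1 and 2 are red from Syvn1 to Os9, while both G2A MEF libraries are blue for Sel1l, Edem1 and Edem3 and red for Nploc4.

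Likeness of pattern was measured as Pearson's r of these deviations over all 11 libraries, among the 10818 genes tested in both tissues. It is a description, since the points share libraries and fall into 2 tissues. The 3 genes most like Sel1l were Hspa5 (r = 0.978), which encodes the ER chaperone BiP, Trib3 (0.977) and Vegfa (0.973). Those most like Syvn1 were Tmem79 (0.981), Chac1 (0.962) and Ptprf (0.954), and those most like Nploc4 were Acsf3 (0.988), Acadvl (0.979) and Ascc2 (0.979). For Herpud1 they were Upk1a, Cryab and Irx5, and for Edem1 Hcfc2, Ppp3ca and Zfp704. For Edem2 they were Ndrg1, En1 and Prss35, and for Edem3 Fam76a, Clec11a and Fam129a. For Os9 they were Hspa2, Parp4 and Ppl, and for Vcp Tst, Gchfr and Fasn. Among the 9 genes, Edem1 with Edem3 (0.937) and Sel1l with Os9 (0.930) were the most alike. Nploc4 with Edem3 (-0.875) and with Edem1 (-0.869) were the most opposed.

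A list of 76 further ERAD genes was counted beside the 9: partners of HRD1, glycan and redox enzymes, other ligases, conjugating enzymes, p97 cofactors, shuttling factors with deubiquitinases, and scaffolds. In liver 71 of them were tested, and 1 was called higher and 0 lower by limma, with 7 higher and 5 lower at an unadjusted p under 0.05. Their median log2 fold change was 0.03, beside 0.01 over all genes, and 43 of 71 were above 0, beside 52.7% of all genes. The called gene was Derl3, which encodes a derlin, one of the membrane proteins of the HRD1 channel. Derl3 rose to 22.1, 37.8 and 26.0 FPKM in G2A livers, against 0.725, 0.804 and 1.59 FPKM in WT livers (log2 fold change 3.85, SE 0.24, adjusted p = 0.0106). Its promoter window also held the ERSE, on the other strand at position -156. Derl3 was the only gene beyond the 9 whose matches were listed, and a link of the match to its level was not tested. No gene of the list was called when WT liver 1 or WT liver 2 was left out, and 14 were without G2A liver 3 (9 higher and 5 lower).

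Derl3's relatives did not follow it in size. Derl1 was at 41.8, 46.0 and 44.3 FPKM in G2A livers, against 37.0, 39.2 and 37.6 FPKM in WT livers (log2 fold change 0.21, adjusted p = 0.136). Derl2 was at a log2 fold change of 0.00 (adjusted p = 0.995). Of the further genes with the smallest p, Selenok, which encodes a selenoprotein of the p97 membrane complex, was at 0.33 (adjusted p = 0.0914) and the rhomboid protease gene Rhbdd1 at 0.44 (adjusted p = 0.107). The lectin gene Erlec1, a relative of Os9 in function, was at 0.31 (adjusted p = 0.132) and Get4, whose product acts in the BAG6 holdase complex, at -0.23 (adjusted p = 0.132). Ufd1, the partner of Nploc4, was at -0.13 (adjusted p = 0.300) in liver and at 0.07 (adjusted p = 0.792) in MEFs, so only one of the 2 cofactor genes was without overlap in MEFs.

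In MEFs 75 of the 76 were tested, and limma and edgeR called none, with 4 higher and 3 lower at an unadjusted p under 0.05 by limma, while DESeq2 called 3 higher and 1 lower. Their median was 0.01, the same to 2 decimals as over all genes, and 39 of 75 were above 0, beside 51.6% of all genes. Without WT MEF 3, limma called 7 higher and 3 lower. Those with the smallest p were Get4 at a log2 fold change of 0.33 (adjusted p = 0.300), Selenos at -0.57 (adjusted p = 0.301), the ligase gene Rnf5 at 0.36 (adjusted p = 0.310), the Herpud1 relative Herpud2 at -0.34 (adjusted p = 0.313) and Vcpip1 at -0.31 (adjusted p = 0.313). Of the 9 tested partners of HRD1 in the list, 7 were below 0, with a median of -0.30. Among the other groups, 5 of 5 conjugating enzymes, 10 of 12 shuttling factors and deubiquitinases and 10 of 17 p97 cofactors were above 0. So were 6 of 12 glycan and redox enzymes, 4 of 14 other ligases and 2 of 6 scaffolds. In liver 4 of the 7 tested partners of HRD1 were above 0, with a median of 0.0015. Derl3 was at 14.8 and 23.5 normalized reads in G2A MEFs, against 26.8, 26.1 and 17.9 in WT MEFs, low in every library and overlapping between genotypes.

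Svip, which encodes a small p97-binding inhibitor of ERAD, was singled out after its values were seen. It was at 815 and 946 normalized reads in G2A MEFs, against 9.27, 2.09 and 893 in WT MEFs. WT MEF 3 thus had a Svip level like that of the G2A libraries, and the other WT libraries nearly lacked it. With all libraries its adjusted p was 0.417.

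Genes of the unfolded protein response, in lists chosen with earlier results of these data known, were set beside the 9. Of 10 regulators in liver, 0 were called, 5 were higher at an unadjusted p under 0.05 and the median log2 fold change was 0.19. Among all 12938 genes tested in liver, 1173 were higher at that unadjusted level and the median was 0.01. The stress-induced factor genes Trib3 (1.89, adjusted p = 0.116) and Atf3 (1.004, adjusted p = 0.107) had the smallest p. Of 14 ER chaperone genes in liver, 14 were above 0 and 11 were higher without overlap, with a median of 0.41 but 0 called. Over all genes tested in liver, 52.7% were above 0 and 11.8% were higher without overlap. Creld2 was at 1.32 and Hsp90b1, the gene of the chaperone GRP94, at 0.63, both with an adjusted p of 0.0811. In MEFs 9 of the 10 regulators were below 0 (median -0.31, 0 called), among them Trib3 at -1.49 (adjusted p = 0.269) and Atf6 at -0.55 (adjusted p = 0.300). Of the chaperone genes in MEFs 11 of 14 were below 0 (median -0.13, 0 called), with Hspa5 at -0.46 (adjusted p = 0.291) and Sdf2l1 at 0.33 (adjusted p = 0.391). Over all genes tested in MEFs, 51.6% were above 0, with a median of 0.01.

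Of the cell type markers, limma called 0 in either tissue with all libraries, and some lists differed between genotypes in their levels. At an unadjusted p under 0.05, 3 erythroid and 2 acinar markers were lower in G2A liver, and 5 mesenchymal, 3 endothelial, 2 macrophage and 1 hepatoblast markers higher. At that level 4 mesenchymal markers were lower in G2A MEFs, and 1 endothelial and 1 acinar marker higher. Over all genes tested, 1173 were higher and 1598 lower in G2A liver at that level, and 913 higher and 990 lower in G2A MEFs. The livers held hepatoblast markers at a summed 9771 to 14130 FPKM in G2A and 10172 to 12577 FPKM in WT, and erythroid markers at 1494 to 2853 FPKM in G2A and 2229 to 3134 FPKM in WT. Both sums overlapped between the genotypes, and all 8 erythroid markers were below 0 in G2A liver. Of the 6 mesenchymal markers all were above 0 and 5 did not overlap, with sums of 963 to 1955 FPKM in G2A livers and 419 to 633 FPKM in WT livers. Among all genes tested in liver, 52.7% were above 0, and 11.8% were higher and 15.7% lower without overlap. Of the 6 endothelial markers 5 were above 0, with sums of 98.2 to 103.0 FPKM in G2A livers and 88.0 to 95.5 FPKM in WT livers. Pancreatic acinar markers, of a secretory cell type with an abundant ER, summed to 4.69 to 5.25 FPKM in G2A livers and 8.39 to 14.01 FPKM in WT livers, and the 3 of 8 that were tested were below 0. Macrophage markers (90.3 to 111 FPKM in G2A livers, 89.9 to 120.1 FPKM in WT livers) and megakaryocyte markers (534 to 690.3 FPKM in G2A livers, 521 to 625 FPKM in WT livers) overlapped. In such bulk samples fewer cells of a type and less RNA per cell cannot be told apart, and the part of these differences in the ERAD results was not tested.

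The MEFs expressed the fibroblast gene Col1a1, at 147919 and 147435 normalized reads in G2A, against 367214, 303500 and 251319 in WT. The fibroblast proteoglycan genes Dcn and Lum were low in most libraries, Dcn at 315 and 261 in G2A MEFs, against 18.5, 1.04 and 4413 in WT MEFs, and Lum at no more than 75.2 in any. In all, 4 of the 5 tested mesenchymal markers were below 0 in G2A, with sums of 226081 to 232214 normalized reads in G2A MEFs and 412482 to 720865 in WT MEFs. Hepatoblast markers, mostly Dlk1, summed to 4532 and 7677 normalized reads in G2A MEFs, against 999, 659 and 32031 in WT MEFs. Endothelial markers summed to 254 and 217 in G2A MEFs, against 206, 219 and 882 in WT MEFs. WT MEF 3 was therefore the highest library for both lists. The erythroid markers Slc4a1 and Gata1, the endothelial Lyve1 and the acinar Cela2a and Ptf1a were at 0 in every MEF library. The part of these differences in the MEF results was not tested.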

How the data were processed

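Trizol RNA was sequenced by BGI. Per the labels' protocols, reads of 50 bp after trimming were aligned to mm9 using TopHat 2.1.1. Cufflinks 2.2.1 and mm10 also appear in the submitters' processing notes. The deposited liver values are FPKM made by the authors, a unit taken from that tool and the values, which are not whole. The deposited MEF values are a normalized signal of whole reads over 1 size factor a library (0.958 to 1.06, 100% of values whole within 0.01). The sources used here give no annotation, counting tool or strand setting.

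Each tissue was tested alone with limma 3.58.1 (R 4.3.3): a moderated test of genotype on log2(value + 1) with a variance trend and Benjamini-Hochberg adjustment over all genes tested, with a threshold of 0.05. Genes needed 1 FPKM in 3 livers, or 10 normalized reads in 2 MEF libraries. The difference between tissues was divided by the standard error of both fits together, with degrees of freedom after Satterthwaite. The fits were tested on simulated data. On simulated MEF reads DESeq2 made more false calls than edgeR. Limma was tested apart from these on simulated log2 values, where in MEFs it recovered a minority of both the smaller and the larger changes. Alternatives were another pseudocount, other filters and scalings, library weights, a replicate block, leaving out each library, and edgeR 4.0.16 and DESeq2 1.42.0 on the recovered MEF reads.

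The 9 genes and all lists were chosen with earlier results of these data known. All 9 are named. Of the other ERAD list the genes called without overlap are named, or with fewer than 5 of these the 5 with the smallest p, and of regulators and chaperones the 2 with the smallest p. Psmc1 was named as the gene of the allele. Relatives and partners of the 9 genes named beside these were chosen by function or after their values were seen. Gene positions are from an annotation of NCBIM37 and promoters from RefSeq.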

Additional observations from a re-analysis of the deposited data

Results flagged for a closer look

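The effect of the G2A genotype on Sel1l, the adaptor of the HRD1 ligase, differed between the tissues by a test of the difference itself. The log2 fold change of G2A over WT was 0.53 in liver and -0.38 in MEFs, a difference of 0.91 (adjusted p = 0.0297). Sel1l was higher in 3 of 3 G2A livers than in every WT liver, and lower in 2 of 2 G2A MEF libraries than in every WT library. The difference passed in 10 of 17 alternatives. It missed the threshold with no filter on low values (adjusted p = 0.0508), with no variance trend (0.0664) and without WT liver 2, WT liver 3, WT MEF 1, G2A MEF 1 or G2A MEF 2 (0.0509 to 0.524).

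The effect on Nploc4, the p97 cofactor, also differed between the tissues by this test. Its log2 fold change was -0.12 in liver and 0.50 in MEFs, a difference of -0.62 (adjusted p = 0.0486). Nploc4 was higher in 2 of 2 G2A MEF libraries than in every WT library, while in liver G2A livers 1 and 2 were below and G2A liver 3 above every WT liver. The difference passed in 4 of 17 alternatives. It missed the threshold with no filter on low values (adjusted p = 0.0752), no variance trend (0.109), median-ratio scaling (0.0575) or quantile scaling (0.0747), and without any one library other than G2A liver 3 and WT MEF 3 (0.0523 to 0.566).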

How the results depend on the processing

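With all libraries limma called 0 of the 9 genes in each tissue, 1 other ERAD gene in liver, 0 in MEFs, and 3 liver and 0 MEF genes over all. With library weights it called 6 of the 9 in liver and 4 in MEFs. It called 30 and 28 other ERAD genes there, and 6057 and 6124 genes over all. The weights were 0.176 for G2A liver 3 and 0.120 for WT MEF 3. They were 6.22 for G2A liver 1, beside 0.740 for G2A liver 2, and 3.52 for WT MEF 1, beside 0.486 for WT MEF 2. The weighted means of G2A livers and of WT MEFs thus rest mostly on 1 library each. DESeq2 called 3 of the 9, 4 other ERAD genes and 1035 genes in MEFs. Leaving out 1 library at a time gave 0 to 4 of the 9, 0 to 14 other ERAD genes and 2 to 3152 genes in liver, and 0 to 3, 0 to 10 and 0 to 3075 in MEFs. Each highest count came without G2A liver 3 or WT MEF 3. Of the 9, those whose effect differed between tissues numbered 2, but 0 with no filter on low values or no variance trend, 1 under median-ratio or quantile scaling, and 0 to 6 with 1 library left out. Those of the 9 without overlap in MEFs numbered 5, and at the lowest 4 under another scaling. They numbered 5 to 8 with 1 library left out, with the 8 reached without G2A MEF 1, where a single G2A library remained. Both alternatives were chosen after seeing the data. Leaving out a library can only keep or raise this number, and the share of all genes was not counted there. Vcp in liver turned to 0.0960 under quantile scaling and ranged from -0.0443 to 0.0305 with 1 library left out. The difference between tissues for Edem2 turned to -0.0238 under quantile scaling and ranged from -0.15 to 0.16 with 1 library left out. The cause of these shifts was not tested.

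Littermate pairs are described for the livers, but no label ties them to the numbers. Correlations of same-numbered deviations were 0.18, -0.10 and 0.10 in liver, where those of unlike numbers ran from -0.22 to 0.13. With so few libraries these values cannot decide whether the numbers pair the livers. In MEFs they were 0.13 and -0.03, but the deviations of the G2A libraries mirror each other and cannot show pairing. The samples were tested unpaired because no label gives the pairs. With a replicate block 0 of the 9 and 0 other ERAD genes were called in liver, and 4 of the 9, 10 other ERAD genes and 3707 genes in MEFs. In MEFs WT MEF 3 has no partner and drops out of that fit. Syvn1 in MEFs turned to 0.0130 under the block and ranged from -0.11 to 0.01 with 1 library left out. The liver depth is unknown, and the number of libraries limits the precision in both tissues.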
